A study of Homo sapiens with 6 samples.

Results

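The 10 genes described here encode amino acid transporters of the plasma membrane: SLC7A5, SLC3A2, SLC7A11, SLC43A1, SLC7A1, SLC1A5, SLC1A4, SLC38A1, SLC38A2 and SLC6A9. They were taken from the 22258 gene symbols of the deposited table by name, and all 10 were found and had enough reads to be tested. The samples were SW480 cells, an established human colon cancer line with truncated APC, and the study asks what the mitochondrial aldehyde dehydrogenase ALDH1B1 does in them. Of 6 samples, 3 carry the genotype label ALDH1B1 KD and 3 the genotype label WT, the latter with the prefix SCR in their column names. All 6 are labelled as untreated, and each group has replicates 4, 5 and 6. How the knockdown was made, and whether a group is 1 clone or a pool, is not stated in the labels. Since nothing says that the replicates were grown as separate cultures, the p-values speak for the spread of these 6 samples alone, and that spread may be technical.

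Amino acid transporters bring nutrients, signals and redox fuel into the cell, and growing tumour cells depend on several of them. SLC7A5 (LAT1) is an exchanger that takes up leucine and other large neutral amino acids, and leucine is one of the signals that activate the growth kinase complex mTORC1. SLC7A5 reaches the surface only as a heterodimer with SLC3A2 (CD98 heavy chain), which also serves SLC7A11 (xCT), the cystine importer that feeds glutathione synthesis. Glutamine enters through SLC1A5 (ASCT2) and through the sodium-coupled SLC38A1 (SNAT1) and SLC38A2 (SNAT2). SLC7A1 (CAT1) carries arginine and lysine, SLC1A4 (ASCT1) carries serine and alanine, SLC6A9 (GLYT1) carries glycine and SLC43A1 (LAT3) carries branched-chain amino acids. Many of these genes are known targets of ATF4, the transcription factor of the amino acid starvation response, and several are known targets of MYC.

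Values are in RPM, reads scaled to the sequencing depth of each sample, obtained by undoing the deposited log2 scale. Depth ranged from 20360000 to 28590000 reads, as worked out from the steps between low values, and the 10 genes rested on 233 to 57238 reads each per sample. Of 15499 genes tested with limma, 41.8% differed at an adjusted p under 0.05: 22.6% were higher in the knockdown and 19.2% lower. A gene past that threshold is called, and is said to have risen or fallen. ALDH1B1 itself fell to 21.2 ± 1.74 from 36.8 ± 2.76 RPM (SD, n = 3 each). Colon epithelial markers summed to 5423 to 5675 RPM in the control and 5778 to 6088 in the knockdown, most of it from the keratins KRT8, KRT18 and KRT19, which were not called. Other markers moved in both directions: VIL1 rose from 5.82 ± 0.587 to 21.7 ± 1.252 RPM, EPCAM rose from 110.4 ± 7.91 to 206 ± 3.21 RPM, and CDX2 fell from 54.3 ± 2.64 to 32.1 ± 3.39 RPM. Their part in the transporter results was not tested. Of 9 such markers in the table, KRT20, LGALS4 and GPA33 lay at 0 to 0.285 RPM, where 3 reads are worth 0.105 to 0.147 RPM. Fibroblast, leukocyte, endothelial and erythroid marker lists each summed to at most 6.92 RPM in any sample. These sums cover only the markers present in the deposited data: 2 of 6 fibroblast, 3 of 5 leukocyte, 1 of 3 endothelial and 2 of 3 erythroid. Control replicate 6 stood apart from the other samples on the second principal component, which held 11.5% of the variance. It was the lowest control for 69.02% of tested genes, and for all 10 transporters. Values without it are therefore given wherever they change the call of a transporter. Over all tested genes, control replicate 6 had a median of 90.4% of the mean of control replicates 4 and 5. For the 10 transporters it had 70.9% to 96.15% of that mean.

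The transporters were present at very different levels, which can be compared between genes only per length. Here RPM was divided by the total exon length of each gene's protein-coding transcripts in GENCODE 29, which may not be the gene models the authors counted on. In the control, SLC1A5 came first with 580.2 ± 49.6 RPM per kb (SD, n = 3). SLC7A5 followed with 135 to 161 and its partner SLC3A2 with 122 to 127 RPM per kb, and their control samples did not overlap. SLC38A2, SLC38A1 and SLC7A1 came next with 38.5 ± 4.86, 37.2 ± 3.41 and 35.9 ± 3.54 RPM per kb, and these did not differ beyond their spread. SLC1A4 had 7.96 ± 0.419, SLC43A1 5.07 ± 0.953, SLC6A9 3.22 ± 0.352 and SLC7A11 1.78 ± 0.339 RPM per kb, with no overlap between neighbours in this order. The order in the knockdown was the same, except that SLC7A1, with 29.3 ± 1.81, stood just above SLC38A1, with 28.6 ± 0.868 RPM per kb, again within their spread.

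**Figure D1:**
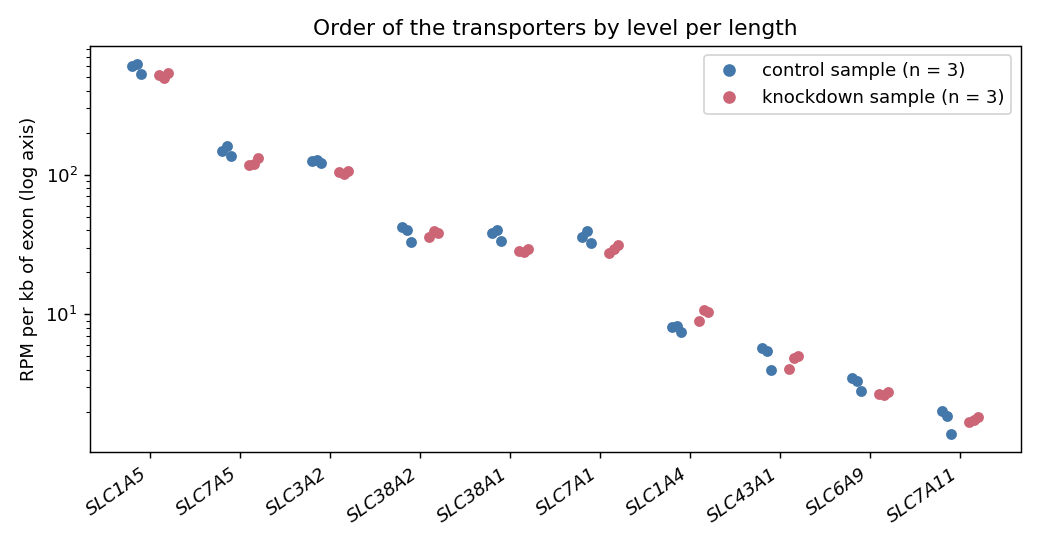
Level of each transporter per kb of exon (log axis) in the 3 control and 3 knockdown samples, ordered by the control mean. SLC1A5 lies near 580.2 RPM per kb and SLC7A11 near 1.78 in the control, and the 2 groups lie close to each other at every gene.

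Of the 10 transporters, 4 fell and 1 rose in the knockdown, so 5 were called, beside 19.2% of all tested genes that fell, 22.6% that rose and 41.8% called in either direction. The median log2 fold change of the 10 was -0.20, against 0.00072 over all tested genes. SLC38A1, SLC7A1, SLC7A5 and SLC3A2 fell, and SLC1A4 rose. Every change was small, at most 0.37 on the log2 scale, while the median size among all called genes was 0.46. The groups did not overlap for 6 of the 10 genes, beside 51.0% of all tested genes. In 5 of these every knockdown sample lay below every control sample (24.6% of all tested genes), and in 1 above (26.5% of all tested genes). The number that fell rested on single libraries: it was 2 without control replicate 5 and 7 without control replicate 6, when SLC1A5, SLC6A9 and SLC43A1 also passed. The samples are averages over a culture, so less message in each cell cannot be told apart from fewer cells that carry it.

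**Figure D2:**
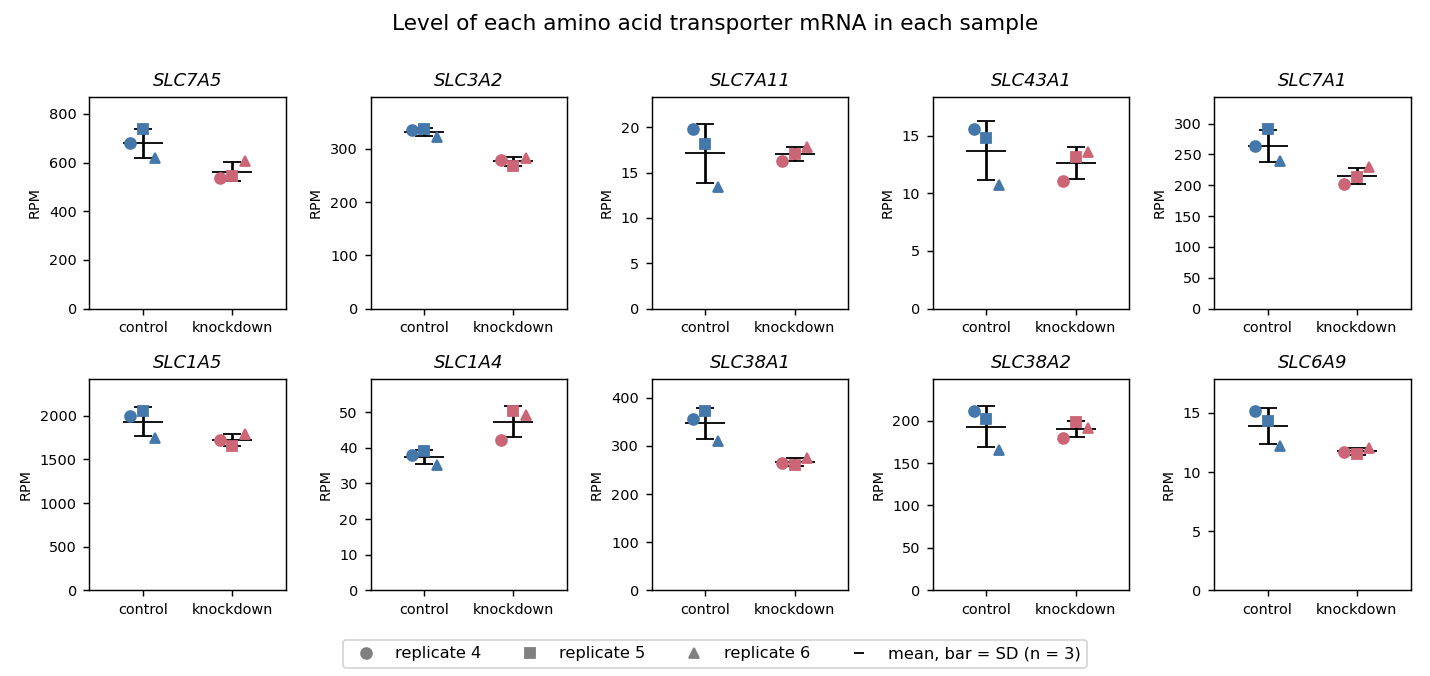
RPM of each transporter in each of the 6 samples (points, shaped by replicate number), with the mean and SD of each group of 3; each vertical axis starts at 0. Control replicate 6 (triangle) is the lowest control in all 10 panels, and the knockdown samples lie below all controls for SLC7A5, SLC3A2, SLC7A1, SLC38A1 and SLC6A9 and above them for SLC1A4.

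Both chains of the leucine exchanger fell together. SLC7A5, the transport chain (chromosome 16, positions 87863629 to 87903095 as the deposited table gives them, on a build that is not GRCh38), had 679.9, 736 and 620.3 RPM in control replicates 4, 5 and 6. In knockdown replicates 4, 5 and 6 it had 539, 543 and 608 RPM. The highest knockdown sample lay just under the lowest control, so the groups did not overlap but nearly touched. The change was -0.27 on the log2 scale (SE 0.0813), or 83.1% of control, with an adjusted p of 0.010035 in limma. This call was lost without control replicate 5 (adjusted p = 0.0803), without knockdown replicate 4 (0.0507) or 5 (0.0565), and without a variance trend (0.0745).

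SLC3A2, the heavy chain (chromosome 11, 62623518 to 62656353), had 334, 336 and 323 RPM in the control and 279, 267 and 283 in the knockdown. Replicates were close to each other, and the groups lay clearly apart. On the log2 scale SLC3A2 fell by 0.26 (SE 0.0715), to 83.5% of control, with an adjusted p of 0.00486 in limma. The ratio of SLC7A5 to SLC3A2 per kb was 1.185 ± 0.0773 in the control samples against 1.179 ± 0.0620 under knockdown (SD, n = 3 each, exact two-sided permutation p = 1), and the samples of both groups overlapped in it. For a single value, 3 against 3 samples cannot give a permutation p below 0.1, which all 6 non-overlapping transporters reached.

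SLC7A11, the cystine importer that shares this heavy chain (chromosome 4, 139085251 to 139163504), was not called. It had 19.8, 18.2 and 13.5 RPM in the control and 16.3, 17.0 and 17.8 in the knockdown. Control replicate 6 was the lowest of all 6 samples, and the knockdown samples lay among the controls. Its difference was 0.01 on the log2 scale, with a 95% interval of -0.23 to 0.25 and an adjusted p of 0.949 in limma. Its sign varied with the scaling, and without control replicate 6 it was -0.15 (adjusted p = 0.197). SLC7A11 per SLC3A2 was 1.42% ± 0.245 in the control and 1.70% ± 0.0793 in the knockdown per kb (exact two-sided permutation p = 0.2).

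SLC43A1, a leucine carrier that needs no heavy chain (chromosome 11, 57252007 to 57283260), was not called either. It had 15.5, 14.8 and 10.7 RPM in the control and 11.1, 13.2 and 13.6 in the knockdown. The control samples spanned the whole range of the knockdown samples. A difference of -0.11 on the log2 scale (95% interval -0.37 to 0.16, limma adjusted p = 0.529) became -0.27 without control replicate 6 (adjusted p = 0.0434).

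The cationic carrier SLC7A1 (chromosome 13, 30083547 to 30169826) fell. It had 263, 291 and 239 RPM in the control and 203, 214 and 229 in the knockdown. All knockdown samples lay below all controls, with a narrow gap between control replicate 6 and knockdown replicate 6. SLC7A1 fell by 0.29 on the log2 scale (SE 0.0801), to 81.7% of control, with an adjusted p of 0.00481 in limma. Without control replicate 5 the adjusted p was 0.0503, and without a variance trend 0.0637.

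Of the sodium-coupled glutamine carriers, SLC38A1 was called and SLC38A2 was not. Their ratio separated the groups without overlap. The permutation test of that ratio could not pass with so few samples, whatever the values, so it does not decide whether the pair differ. SLC38A1 (chromosome 12, 46576846 to 46663801) had 357, 372 and 311 RPM in the control and 265, 260.02 and 276 in the knockdown. The groups lay apart, and this was the largest change among the 10 genes. SLC38A1 fell by 0.37 on the log2 scale (SE 0.0776), to 77.2% of control, with an adjusted p of 0.000405 in limma. SLC38A2, its close relative and chromosomal neighbour (46751972 to 46766651), had 211, 202 and 165 RPM in the control and 179.8, 199 and 192 in the knockdown. Here the knockdown samples lay inside the control range. SLC38A2 differed by -0.02 (95% interval -0.19 to 0.16, limma adjusted p = 0.901), and the sign depended on the scaling.

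The difference between the pair was tested with the SLC38A1 to SLC38A2 ratio per kb. It was 0.908, 0.988 and 1.01 in control replicates 4, 5 and 6 and 0.792, 0.703 and 0.772 in the knockdown. Every knockdown sample had a lower ratio than every control, 0.780 of the control mean (exact two-sided permutation p = 0.1, the smallest possible, and 0.2 when adjusted over the 4 ratios computed).

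SLC1A5, the most abundant of the 10 (chromosome 19, 47278140 to 47291852), had 2002, 2053 and 1745 RPM in the control. The knockdown samples had 1726, 1650.3 and 1787 RPM. Control replicate 6 lay among the knockdown samples, so the groups overlapped. A difference of -0.16 on the log2 scale (95% interval -0.34 to 0.01) did not pass (limma adjusted p = 0.131). It was -0.24 without control replicate 6 (adjusted p = 0.0322) and -0.19 under median-of-ratios scaling (adjusted p = 0.0167).

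SLC1A4, the serine and alanine carrier of the same family (chromosome 2, 65215611 to 65251000), was the single member that rose. It had 37.9, 39.0 and 35.2 RPM in the control and 42.3, 50.3 and 49.2 in the knockdown, so all knockdown samples lay above all controls. It rose by 0.34 on the log2 scale (SE 0.0870), to 126% of control, with an adjusted p of 0.00303 in limma, and passed under all 15 alternatives run. SLC1A4 per SLC1A5 went from 1.38% ± 0.0491 in the control to 1.95% ± 0.213 in the knockdown per kb (exact two-sided permutation p = 0.1, adjusted 0.2). No knockdown sample overlapped a control in that ratio.

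The glycine carrier SLC6A9 (chromosome 1, 44457172 to 44497140) had 15.2, 14.3 and 12.2 RPM in the control and 11.7, 11.5 and 12.0 in the knockdown. The groups did not overlap, but control replicate 6 lay almost at the knockdown level. Its difference of -0.24 on the log2 scale (95% interval -0.46 to -0.01) did not pass over all genes (limma adjusted p = 0.0843). It passed without control replicate 6 (-0.33, adjusted p = 0.0114), under median-of-ratios scaling (0.0198) and under quantile normalization (0.00631).

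**Figure D3:**
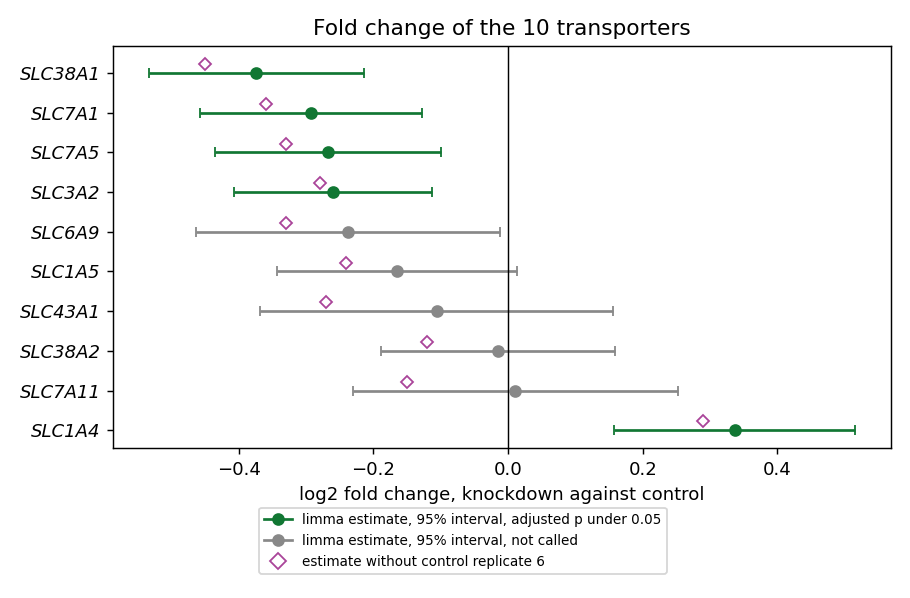
Log2 fold change of each transporter, knockdown against control, with limma's 95% interval (filled points) and the estimate without control replicate 6 (open diamonds). In all 10 genes the diamond lies to the left of the filled point, since control replicate 6 was the lowest control in each.

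Genes near SLC1A4 were also higher. Of the 18 other tested genes within 2 Mb of it, 11 rose and 2 fell, and their median log2 fold change was 0.36, beside 0.34 for SLC1A4 itself. Within 5 Mb, 36 of 53 rose and 3 fell, with a median of 0.40. In order of distance, the 6 nearest were CEP68 (log2 fold change 0.64, rose), RAB1A (0.36, rose), AC007318.5 (-0.44, fell), ACTR2 (0.18, not called), SERTAD2 (0.40, rose) and SPRED2 (0.17, not called). The part that chromosome position has in the rise of SLC1A4 was not tested.

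Around the transporters that fell, the neighbours' medians were nearer 0. The median log2 fold change within 2 Mb was 0.05 around SLC7A5, -0.03 around SLC3A2 and -0.04 around SLC7A1. Around SLC38A1 it was -0.14, with 6 of 22 neighbours that rose and 6 that fell, SLC38A2 among the neighbours. SLC7A11, whose own change was near 0, lay among lower genes, with 6 of 11 neighbours that fell and a median of -0.35.

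**Figure D4:**
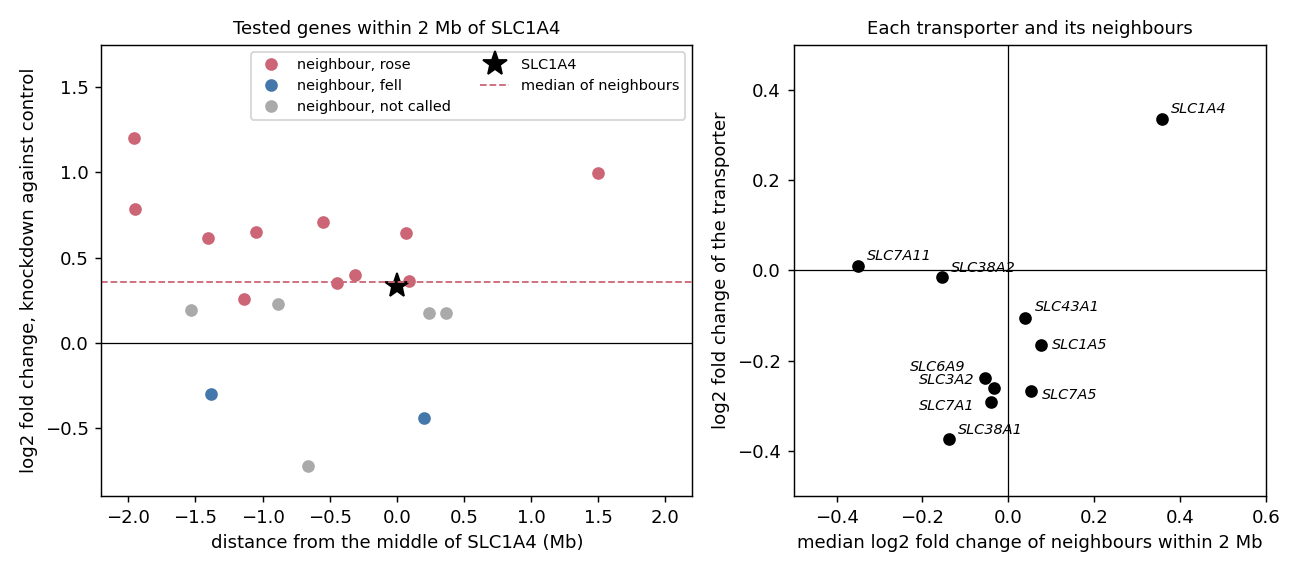
Left, log2 fold change of the 18 tested genes within 2 Mb of SLC1A4 (star) against their distance from it in Mb, with their median (dashed, 0.36). Right, each transporter's log2 fold change against the median of its neighbours within 2 Mb; SLC1A4 lies at upper right (0.36 and 0.34), away from the other 9.

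Promoters of these genes were taken from RefSeq (GRCh38.p14, 250 bases before to 50 after each listed start), which held 16 entries for 9 of the 10 transporters. SLC7A11 had none. They were searched on both strands for 3 motifs, and a match describes letters, not a bound site. The core TGATGNAA of the composite element bound by ATF4 with C/EBP partners was found for 5 of the 9 genes, beside 4.46% of all 27305 genes with a promoter. The matches are shown because the 5 genes include SLC1A4, which rose, and 3 that fell. Capitals mark the match, which SLC3A2 and SLC1A4 carry on the opposite strand, and each stretch reads 5′ to 3′ along the gene:
SLC7A1: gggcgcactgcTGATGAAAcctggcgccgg
SLC38A1: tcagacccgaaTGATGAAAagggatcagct
SLC3A2: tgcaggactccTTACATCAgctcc
SLC1A4: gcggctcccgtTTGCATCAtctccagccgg
SLC1A5: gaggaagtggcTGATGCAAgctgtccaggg
Counted from the listed start, the first base of the match lay at position 8 for SLC7A1, -4 for SLC38A1, 38 for SLC3A2, -7 for SLC1A4 and -97 for SLC1A5. In SLC1A5 the match is at the third of its 3 listed starts and in SLC3A2 at the first of 3. In SLC1A4 it is at the second of 2, and in SLC38A1 at the first of 2. A gene was counted if any of its listed starts matched. Counted by entry, 5 of 16 held the composite core, beside 3.62% of all promoters.

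The E-box CACGTG, a site type that MYC binds, was found for SLC7A5, SLC1A5 and SLC43A1 (3 of 9, beside 8.77% of all genes). The core TGACNNNGC of the antioxidant element bound by NRF2 was found for SLC7A5, SLC7A1, SLC3A2 and SLC1A5 (4 of 9, beside 16.1% of all genes). Counted by entry, 3 of 16 held the E-box, beside 7.26% of all promoters, and 4 of 16 the antioxidant core, beside 13.3%. The 250 bases before the start are shown for the 2 chains of the leucine exchanger, since both messages fell. Capitals mark the E-box in SLC7A5 (minus strand, chr16:87869508-87869757) and the antioxidant core in SLC3A2 (plus strand, chr11:62881449-62881698); a further antioxidant core of SLC7A5 spans its start and is not marked:
SLC7A5: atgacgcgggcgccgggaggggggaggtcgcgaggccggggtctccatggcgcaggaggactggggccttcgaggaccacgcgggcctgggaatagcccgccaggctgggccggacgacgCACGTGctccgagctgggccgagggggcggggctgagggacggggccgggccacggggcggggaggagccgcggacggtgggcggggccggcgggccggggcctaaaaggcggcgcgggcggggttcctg
SLC3A2: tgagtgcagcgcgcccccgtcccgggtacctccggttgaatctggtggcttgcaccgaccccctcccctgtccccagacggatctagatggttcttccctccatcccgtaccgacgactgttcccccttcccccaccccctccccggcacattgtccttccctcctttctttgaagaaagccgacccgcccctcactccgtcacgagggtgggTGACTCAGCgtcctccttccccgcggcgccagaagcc
Over 300 bases the SLC7A5 promoter was 80.3% G and C, that of SLC7A1 82.0% and this one of SLC3A2 62.7%, against a median of 58.7% over all promoters. No motif was found in the windows of SLC38A2 and SLC6A9.

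Several other plasma membrane amino acid transporters had larger changes. Of 30 listed, 15 were in the table and 12 were tested, of which 5 fell and 2 rose (beside 19.2% and 22.6% of all tested genes), with a median log2 fold change of -0.23. SLC7A2 (CAT2), a cationic carrier like SLC7A1, had 13.5, 14.4 and 15.7 RPM in the control and 4.37, 5.90 and 5.58 in the knockdown. SLC7A2 fell by 1.47 on the log2 scale (SE 0.130), with an adjusted p of 2.27e-09 in limma, and its groups lay far apart. SLC6A20, a proline carrier, went from 1.80 ± 0.331 to 0.524 ± 0.208 RPM, and the glutamate carrier SLC1A3 from 13.8 ± 0.780 to 8.47 ± 0.591 RPM. The knockdown samples of SLC6A20, with 0.285, 0.639 and 0.650 RPM, lay under the 0.688 RPM required for testing. SLC6A20 passed that filter through its control level. SLC43A2 (LAT4), a relative of SLC43A1, fell by 0.54 on the log2 scale and the glutamine carrier SLC38A5 by 0.20. The SLC38A5 call (limma adjusted p = 0.0465) was lost with any 1 of the 6 libraries left out (0.0523 to 0.174), with the replicate block (0.137), without a variance trend (0.103) and under 2 of 3 other scalings (0.0939 and 0.0973).

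SLC6A6, the taurine carrier, rose from 52.5 ± 2.52 RPM in the control to 97.5 ± 3.21 in the knockdown, or by 0.89 on the log2 scale (SE 0.0766), with an adjusted p of 1.425e-09 in limma. It too lay among higher genes: 31 of its 33 tested neighbours within 2 Mb rose, with a median of 0.74, and the part of position was not tested. SLC7A7, which forms a heterodimer with SLC3A2 and exports arginine, rose from 5.02 ± 0.928 to 8.83 ± 1.44 RPM, while its neighbours had a median of 0.07. The other light chains of SLC3A2 that were tested were not called: the value was 0.13 for SLC7A8 (LAT2, limma adjusted p = 0.212) and -0.03 for SLC7A6 (0.779), both on the log2 scale. SLC7A8 passed under non-mitochondrial total scaling (adjusted p = 0.0161) and quantile normalization (0.00688), and the sign of SLC7A6 varied with the scaling. Among the light chains SLC7A5, SLC7A6, SLC7A7, SLC7A8 and SLC7A11, therefore, 1 fell, 1 rose and 3 were not called.

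**Figure D5:**
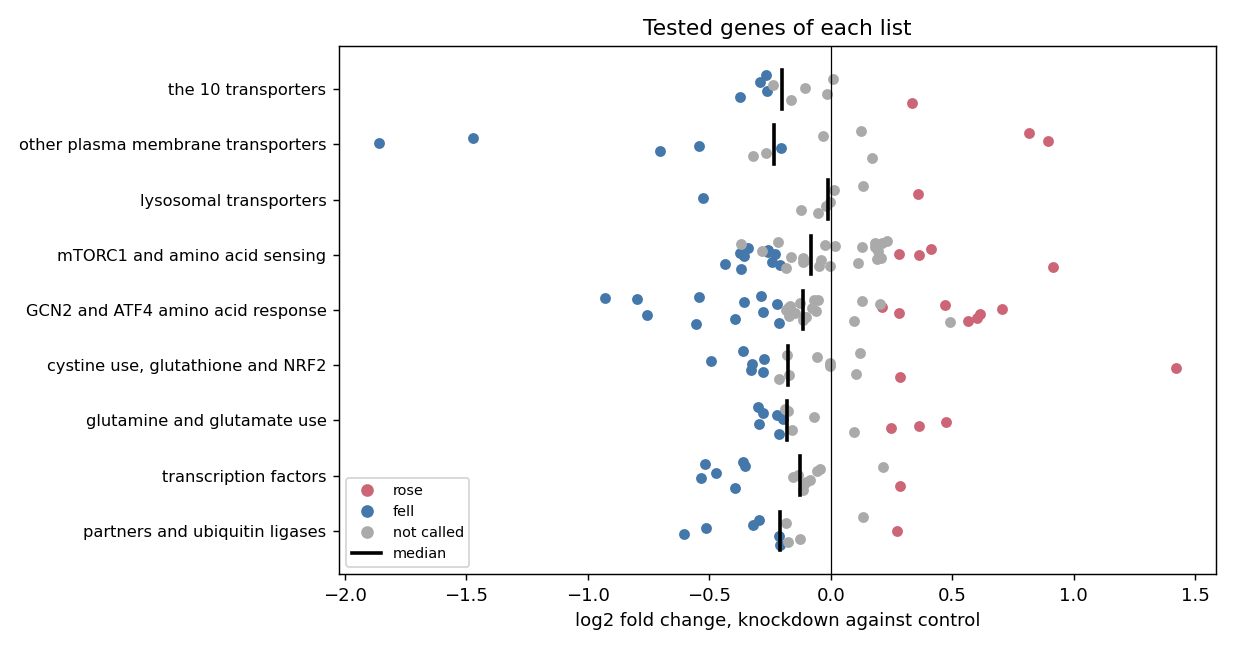
Log2 fold change of every tested gene in the 10 transporters and the 8 lists of related genes, coloured by its call, with each list's median (black bar). SLC6A20 and SLC7A2 lie furthest to the left, with -1.86 and -1.47, and GGT1 furthest to the right, with 1.42. SLC6A20 passed the filter for testing through its control level and GGT1 through its knockdown level.

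Amino acids that enter the cell also pass the lysosomal membrane, where mTORC1 is switched on. Of 8 tested lysosomal transporters, the proton-coupled SLC36A1 fell, from 23.9 ± 3.11 to 16.6 ± 1.79 RPM, and SLC36A4 rose, from 13.8 ± 0.951 to 17.8 ± 1.06 RPM, each 12.5% of the list beside 19.2% and 22.6% of all tested genes. The other 6 were not called, among them the arginine sensor SLC38A9 with 0.13 (limma adjusted p = 0.354). Of 36 tested genes of mTORC1 and its amino acid sensors, 10 fell (27.8%, beside 19.2% of all tested genes) and 4 rose (11.1%, beside 22.6%), with a median log2 fold change of -0.08. The kinase MTOR fell from 87.6 ± 6.95 to 68.4 ± 3.34 RPM (log2 fold change -0.36, limma adjusted p = 0.000883). Its partner RPTOR fell by 0.37 on the log2 scale and its inhibitor AKT1S1 by 0.37. The number that fell was 5 with the replicate number as a block, without a variance trend and without knockdown replicate 5. It was 6 without control replicate 4 or 5 or without knockdown replicate 4. Under median-of-ratios scaling and under quantile normalization it was 14.

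The 4 of these genes that rose were the SAMTOR gene (listed as C7orf60), SEC13, RHEB and NPRL2. RHEB is the GTPase that activates mTORC1, and NPRL2 is part of the GATOR complex that restrains it. Around SEC13 the neighbours had a median log2 fold change of 0.69, around RHEB of 0.52 and around NPRL2 of 0.38, beside 0.41, 0.28 and 0.36 for the genes themselves. C7orf60 had 0.92, with a median of 0.18 among 7 neighbours. RHEB and NPRL2 were named after their values were seen, and the part of position was not tested. Under the 3 other scalings 8, 8 and 9 of the 36 rose.

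The ATF4 response raises many of these transporters when amino acids run short. Of 35 tested members of its list, 11 fell (31.4%, beside 19.2% of all tested genes) and 7 rose (20%, beside 22.6%), with a median log2 fold change of -0.11. The share that rose is near that of all genes. ATF4 itself had 297, 288 and 265 RPM in the control and 261, 259 and 264 in the knockdown. Its log2 fold change of -0.11 was not called (limma adjusted p = 0.216) except under median-of-ratios scaling (0.0253). Only message was measured, not ATF4 protein or its activity. The lipoprotein receptor VLDLR fell by 0.93 on the log2 scale, the pseudokinase TRIB3 by 0.80, and the tRNA synthetases AARS and WARS by 0.56 and 0.54. Neighbours of these genes within 2 Mb had medians of -0.30, -0.11, -0.03 and -0.32, in the same order, and the part of position was not tested. The factor DDIT3 (CHOP) and the phosphatase subunit PPP1R15A, both of the later stress response, rose by 0.62 and 0.47. The asparagine synthetase ASNS, named after its value was seen, differed by 0.10 (limma adjusted p = 0.490), and by -0.09 without control replicate 6 (0.321). The number that fell was 17 without control replicate 6 and under median-of-ratios scaling, and 7 without a variance trend.

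Cystine taken up by SLC7A11 feeds glutathione synthesis. Of 16 tested genes of cystine use, glutathione and NRF2, 6 fell (37.5%, beside 19.2% of all tested genes) and 2 rose (12.5%, beside 22.6%), with a median log2 fold change of -0.18. The thioredoxin reductase TXNRD1 fell from 133 ± 4.49 to 104 ± 6.14 RPM (log2 fold change -0.36, limma adjusted p = 0.000386). GCLM, the modifier subunit of the enzyme that starts glutathione synthesis, fell by 0.33 on the log2 scale and glutathione reductase GSR by 0.32. KEAP1 also fell, with a log2 fold change of -0.27 (limma adjusted p = 0.00655). NFE2L2, which encodes NRF2, differed by -0.05 on that scale (limma adjusted p = 0.604), and NRF2 protein was not measured. The 2 that rose were the repressor BACH1, by 0.28, and GGT1, which has near-identical copies that may share reads. In the control GGT1 lay at 0.426 ± 0.170 RPM, under the 0.688 RPM required for testing. It passed that filter through its knockdown level of 1.10 ± 0.298 RPM. The BACH1 call was lost without knockdown replicate 6 (adjusted p = 0.0728) and that of GGT1 without knockdown replicate 4 (adjusted p = 0.0510). Within 2 Mb, neighbours had a median log2 fold change of -0.13 around TXNRD1, -0.16 around GCLM, -0.25 around GSR and 0.01 around KEAP1. It was 0.20 around BACH1 and -0.09 around GGT1, and the part of position was not tested.

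Of 14 tested genes of glutamine, glutamate and branched-chain amino acid use, 6 fell (42.9%, beside 19.2% of all tested genes) and 3 rose (21.4%, beside 22.6%), with a median log2 fold change of -0.18. GLS2, an enzyme that breaks down glutamine, rose from 15.3 ± 0.789 to 21.3 ± 0.973 RPM (log2 fold change 0.48, limma adjusted p = 0.000318). GFPT1, which uses glutamine for hexosamine synthesis, and CAD, which uses it for pyrimidines, rose by 0.36 and 0.25, with neighbours at a median of 0.48 and 0.49. The CAD call was lost without knockdown replicate 6 (adjusted p = 0.0762), with the replicate block (0.0513) and without a variance trend (0.0795). Among the 6 that fell were GOT2 (log2 fold change -0.28, limma adjusted p = 0.00510) and PPAT (-0.30, 0.00796). Their neighbours had medians of -0.06 and -0.21, and the part of position was not tested. Both calls were lost without knockdown replicate 5 (limma adjusted p = 0.0526 and 0.0651) and without a variance trend (0.0514 and 0.0544). The number that fell was 1 without knockdown replicate 5 and without a variance trend, and 3 with the replicate block or without control replicate 4, control replicate 5 or knockdown replicate 4.

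Among 16 tested transcription factors known to act on amino acid transporter genes, 6 fell (37.5%, beside 19.2% of all tested genes) and 1 rose (6.25%, beside 22.6%), with a median log2 fold change of -0.12. MYC fell from 143.6 ± 9.16 to 103 ± 5.59 RPM, and the hypoxia factor HIF1A from 125 ± 6.18 to 86.4 ± 5.84 RPM. The Hippo pathway factors WWTR1 and YAP1 fell by 0.52 and 0.36 on the log2 scale and ATF5 by 0.39. Neighbours within 2 Mb had a median of -0.36 around WWTR1, -0.17 around HIF1A, 0.05 around YAP1, 0.10 around ATF5 and 0.11 around MYC. The part of position was not tested. The 1 factor that rose was BACH1, whose call rests on knockdown replicate 6 as above. Of 11 tested surface partners and ubiquitin regulators, 6 fell (54.5%, beside 19.2% of all tested genes) and 1 rose (9.09%, beside 22.6%), with a median of -0.21. LAPTM4B, which brings SLC7A5 and SLC3A2 to lysosomes, fell from 101 ± 1.37 to 66.7 ± 4.11 RPM (log2 fold change -0.60, limma adjusted p = 7.73e-07). NEDD4 and NEDD4L, ubiquitin ligases that remove membrane transporters from the surface, fell by 0.51 and 0.32, and the galectin LGALS3 rose by 0.27. The number that fell was 3 with the replicate block, without a variance trend and without control replicate 4 or 5.

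Likeness of pattern was measured by Pearson's r of log2 values over the 6 samples, among 12050 other genes whose mean reached 3.44 RPM. The samples share 2 groups and their libraries, so high values are common: 1729 genes lay above 0.9 for SLC7A5, 2312 for SLC3A2 and 209 for SLC7A11. Closest to SLC7A5 were UVRAG (r = 0.998), MANBAL (0.997) and the pseudogene HNRNPA3P6 (0.997). Closest to SLC3A2 were NDUFB10 (r = 0.9997), MRPS18A (0.999) and TFAM (0.998). Closest to SLC7A11 were KLHL24 (r = 0.991), RSBN1L (0.991) and the pseudogene PMS2P1 (0.991), whose log2 fold changes were -0.02, 0.0044 and 0.04.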

How the data were processed

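The authors deposited 1 table of normalized log2 values per gene and sample, without read counts. The labels do not state the scale: every column ends at an offset of 1e-04, and 75.4% to 76.3% of low values are within 0.02 reads of a multiple of 1 step, read here as log2 of RPM plus that offset. Partek, Bowtie and hg38 are named in the submitters' processing notes, without versions or roles. The table's positions are not GRCh38, since its largest end on chromosome 1 is 249214146 against 248937043 in GENCODE 29. How reads were counted, on which gene models and with which filters is not stated there.

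A symbol at several loci (1192 of 22258) had equal values at each and was used once. Testing covered 15499 genes whose mean reached 0.688 RPM (14 reads in the shallowest library), with limma 3.58.1 in R 4.3.3 (lmFit, eBayes with a trend), two-sided, at a Benjamini-Hochberg adjusted p under 0.05 over all 15499. The script was tested on simulated data. No count model was run, since many values are not whole reads. The level of 3 reads was 0.105 to 0.147 RPM.

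Of 203 entries in the other lists and marker lists, 164 were found under their symbol and 10 under an older one, and the remaining 29 were not analysed here. The transporters and lists were chosen with earlier results of these data known. From each list up to 6 genes with the smallest adjusted p could be named, besides ATF4, MYC, NFE2L2 and MTOR. For likeness the 3 genes with the highest r were taken. SLC38A5, SLC7A8, SLC7A6, RHEB, NPRL2, ASNS and the epithelial markers fall outside it and were picked with their values in view. Figures were drawn with matplotlib 3.10.9. Samples with the same replicate number had deviations from their group means that correlated at -0.05, -0.06 and -0.13 across genes, so the numbers were not taken to pair the samples. One gene of the glutamine list is not reported here by name.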

Additional observations from a re-analysis of the deposited data

How the results depend on the processing

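For the 10 transporters, 150 repeats under 15 alternatives (other filters, offset, scalings and variance priors, a replicate block, and each library left out) gave 129 with the same direction and side of the threshold. SLC38A1, SLC3A2 and SLC1A4 kept their calls in all 15, but the sizes varied with the scaling. Quantile normalization gave smaller differences than the deposited values for SLC7A5 (-0.15), SLC3A2 (-0.16), SLC1A5 (-0.05), SLC38A1 (-0.30) and SLC7A1 (-0.25). It gave larger ones for SLC6A9 (-0.31), SLC43A1 (-0.19) and SLC1A4 (0.37). The number of transporters that fell was 2 without a variance trend and 2 to 7 with 1 library left out, and the cause was not tested. With the replicate block, 4 fell and 1 rose, and over all genes 2303 fell and 3181 rose, so the block changed none of the 10 calls. SLC7A11 ranged from -0.15 to 0.12 with 1 library left out and changed sign to -0.01 under median-of-ratios scaling, -0.04 under quantile normalization, -0.15 without control replicate 6 and -0.02 without knockdown replicate 6. SLC38A2 ranged from -0.12 to 0.05 and changed sign to 0.04 under non-mitochondrial total scaling and quantile normalization, 0.05 without control replicate 4, 0.02 without control replicate 5 and 0.02 without knockdown replicate 4. Neither gene was called under any of the 15. Among other named genes, CTNS had 0.00 under non-mitochondrial total scaling and -0.14 to 0.03 with 1 library left out, and PQLC2 had 0.03 under that scaling, -0.08 to 0.05 with 1 library left out, and 0.01 without knockdown replicate 5. SLC7A6 had 0.02 under non-mitochondrial total scaling, 0.04 under quantile normalization and -0.09 to 0.01 with 1 library left out, and ASNS -0.09 to 0.20 with 1 left out. The median of all tested genes lay between -0.04 and 0.05 under the 3 other scalings. With standard errors of 0.0715 to 0.127 on the log2 scale and 3 samples per group, small differences in the 10 transporters are not detectable, and an uncalled gene is not shown to be equal in both groups.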
